A study of Bos taurus with 28 samples.

Results

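EBI3 and CCL25 are genes for secreted immune ligands, and their expression was followed in uterine biopsies of 28 heifers. The genes were taken by identifier, EBI3 as ENSBTAG00000012829 and CCL25 as ENSBTAG00000005581, and are 2 of the 19458 gene IDs with a read in any heifer. They were chosen by their measured levels, as ligand genes of the HF against CTRL contrast, so their levels in the 3 treatments are described here and the HF against CTRL difference is given with no test.

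EBI3 encodes the soluble receptor-like subunit that pairs with IL27 to form the cytokine IL-27, and with IL12A to form IL-35. In human and mouse it is made by antigen-presenting cells after signals through Toll-like receptors and NF-kB, and its cytokines restrain or shape T cell responses through receptors that contain IL27RA, IL6ST and IL12RB2. CCL25 is a chemokine known in human and mouse from thymus and small intestine, where it draws in lymphocytes that carry the receptor CCR9, while the atypical receptor ACKR4 takes it up and clears it.

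All heifers were cross-bred, had no calf before and had their estrus synchronized with an intravaginal progesterone device worn for 8 days, a gonadotrophin-releasing hormone at its insertion and prostaglandin F2 alpha 24 h before its removal. At 72 h after removal all received gonadotrophin-releasing hormone again. The 10 HF heifers were then inseminated with frozen-thawed semen of 5 Holstein-Friesian bulls of high field fertility, the 10 LF heifers with that of 5 bulls of low field fertility (2 heifers per bull in both), and the 8 CTRL heifers were not inseminated. The study used 2 straws of each bull, from 2 ejaculates, and does not state plainly how many straws each heifer received. Whole semen was inseminated, so semen plasma, extender and the act of insemination cannot be told apart from sperm. The uterine horn on the side of ovulation was sampled after slaughter, 12 h after insemination, with an 8 mm punch between the caruncles, and endometrium was dissected from the muscle layer. The labels call the heifers Holstein-Friesian, whereas the study's animal sheet lists them all as beef crosses. The work ran in 2 study replicates, with 5 HF, 5 LF and 4 CTRL heifers in each. Heifers are named by treatment and number, so that HF1 to HF5, LF1 to LF5 and CTRL1 to CTRL4 belong to study replicate 1.

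Counted reads per heifer ranged from 14872812 to 25633259 (median 19315998), and the ranges of the 3 treatments overlapped. Values are normalized counts relative to library size (CPM) after TMM scaling over all 28 heifers. Both genes were counted in every heifer. EBI3 had 9 to 108 reads per heifer and CCL25 had 37 to 121, so counting error alone gave an average coefficient of variation of 12.5% to 18.6% for EBI3 and 10.8% to 13.8% for CCL25, depending on the treatment. Biopsies hold epithelium, stroma, vessels, leukocytes and remains of muscle, and fewer cells that make a transcript cannot be told apart from less of it per cell. Of 9 cell type marker lists, 7 had a member with a known ID.

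EBI3 was highest in the HF treatment and lowest in CTRL heifers, with LF heifers between them. In the HF treatment it ran from 1.71 CPM in HF8 through a median of 3.11 CPM to 5.44 CPM in HF9. In LF heifers the lowest value was 1.37 CPM in LF10, the median 1.99 CPM and the highest 5.30 CPM in LF8. In CTRL heifers the lowest was 0.524 CPM in CTRL1, the median 1.62 CPM and the highest 2.34 CPM in CTRL6. The ranges overlapped in all 3 pairs of treatments. None of the 10 HF heifers fell below the CTRL median, and 6 exceeded every CTRL heifer, namely HF2, HF4, HF6, HF7, HF9 and HF10, while HF1, HF3, HF5 and HF8 stayed inside the CTRL range. In LF heifers 7 of 10 lay above the CTRL median and 3 above every CTRL heifer.

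**Figure D1:**
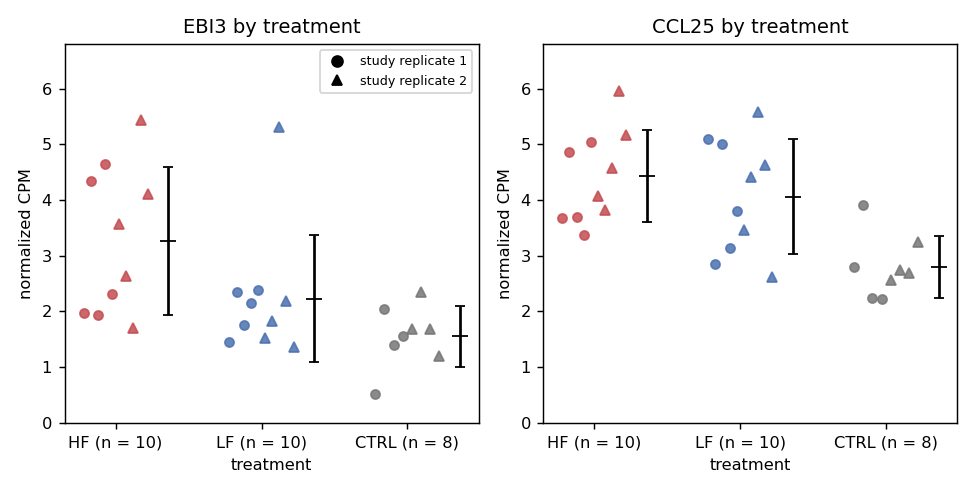
Normalized CPM (linear y axis) of EBI3 and CCL25 in the HF, LF and CTRL treatments (x axis). Each circle is a heifer of study replicate 1 and each triangle a heifer of study replicate 2, and the bar shows the mean and 1 SD; for EBI3 the LF heifer at 5.30 CPM stands alone above 9 others of at most 2.39 CPM, and for CCL25 9 of 10 LF heifers lie above the CTRL median.

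The mean of EBI3 was 3.27 ± 1.33 CPM (SD, n = 10) in HF, 2.23 ± 1.14 CPM (SD, n = 10) in LF and 1.55 ± 0.548 CPM (SD, n = 8) in CTRL heifers. HF heifers spread widely, with 5 of them at 2.64 CPM or less and 5 at 3.57 CPM or more. The LF mean owed much to LF8, and without it the other 9 LF heifers averaged 1.89 ± 0.394 CPM (SD, n = 9). The lowest heifer, CTRL1, rested on 9 reads, which allow 0.240 to 0.995 CPM (95% exact Poisson interval, counting error only). The highest, HF9, rested on 85 reads, with an interval of 4.35 to 6.73 CPM. Variance between heifers of the same treatment was 9.90 times that of counting in HF, 10.8 times in LF and 3.54 times in CTRL heifers.

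CCL25 was higher in both inseminated treatments than in CTRL heifers, and HF and LF heifers overlapped almost wholly. HF heifers had 3.37 CPM at the lowest (HF4), 4.32 CPM at the median and 5.95 CPM at the highest (HF9). LF heifers had 2.62 CPM at the lowest (LF10), 4.11 CPM at the median and 5.58 CPM at the highest (LF8). CTRL heifers had 2.22 CPM at the lowest (CTRL4), 2.71 CPM at the median and 3.91 CPM at the highest (CTRL2). The CTRL median was exceeded by 10 of 10 HF and 9 of 10 LF heifers, and the CTRL maximum by 6 HF and 5 LF heifers. The upper end of the CTRL range was set by CTRL2 alone, since CTRL8 came next at 3.25 CPM and the HF minimum was above it.

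Mean CCL25 was 4.42 ± 0.827 CPM (SD, n = 10) in HF, 4.06 ± 1.03 CPM (SD, n = 10) in LF and 2.80 ± 0.556 CPM (SD, n = 8) in CTRL heifers. Heifers varied less in CCL25 than in EBI3, with coefficients of variation of 18.7%, 25.4% and 19.8% in HF, LF and CTRL heifers against 40.6%, 51.2% and 35.3% for EBI3. Beyond counting, variance between heifers was 2.27 to 5.05 times that of counting, depending on the treatment. In the edgeR fit of HF and CTRL heifers the biological coefficient of variation was 39.4% for EBI3 and 23.2% for CCL25, both below the trend for genes of their abundance (49.2% and 46.8%). The extremes of both genes coincided in places. HF9 held the highest value of both genes among HF heifers, LF8 the highest and LF10 the lowest of both among LF heifers, whereas CTRL1, lowest in EBI3, had 2.80 CPM of CCL25, near the CTRL mean.

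Relative to CTRL heifers, the log2 fold change (log2FC) of EBI3 in the HF treatment was 1.07 (standard error 0.29), a 2.10-fold higher level, and that of CCL25 was 0.65 (standard error 0.16), or 1.57-fold. This contrast chose the genes, so both values are description. The log2FC of EBI3 was reached or exceeded by 0.685% of the 14885 genes tested and that of CCL25 by 3.21%, with a median of -0.02 over all genes. edgeR's quasi-likelihood test with Benjamini-Hochberg adjustment called 0 genes here, or 0% of those tested, and at an unadjusted p under 0.05 stood 2386 genes (16%, with 7.76% higher in HF). DESeq2, the tool of the study, called 328 of 15459 genes (2.12%, with 1.05% higher in HF), both genes among them, and nothing can be read from that count.

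LF heifers were compared with the same CTRL heifers, so these values are not independent of those above. EBI3 had a log2FC of 0.52 (standard error 0.29, 95% interval -0.10 to 1.14) and did not pass the test (edgeR adjusted p = 0.874, DESeq2 adjusted p = 0.873). The value rested on LF8, and without that heifer it was 0.28 (edgeR adjusted p = 0.818). CCL25 had a log2FC of 0.53 (standard error 0.19, 95% interval 0.13 to 0.93), 1.45-fold, and likewise did not pass (edgeR adjusted p = 0.874, DESeq2 adjusted p = 0.640), with 9 of 10 LF heifers above the CTRL median. edgeR called 0 of 14849 genes (0%) in LF relative to CTRL heifers, with 839 (5.65%, of which 2.94% of all tested were higher in LF) at an unadjusted p under 0.05, and DESeq2 called 2 of 19179 (0.0104%).

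Between HF and LF heifers, which use the HF heifers of the contrast that chose the genes, the log2FC of EBI3 was 0.54 (standard error 0.27, 95% interval -0.03 to 1.11; edgeR adjusted p = 0.642, DESeq2 adjusted p = 0.542). HF heifers lay above the LF median in 7 of 10 cases, and without LF8 the log2FC rose to 0.78 (edgeR adjusted p = 0.462). For CCL25 it was 0.11 (standard error 0.16, 95% interval -0.23 to 0.46; edgeR adjusted p = 0.944, DESeq2 adjusted p = 0.936), and 5 of 10 HF heifers lay above the LF median. The interval for CCL25 thus reaches from 0.852-fold to 1.37-fold. These intervals count each heifer as a unit, although 2 heifers share each bull. With the reads of each bull's heifers summed, the log2FC of EBI3 was 0.58 (standard error 0.29, edgeR adjusted p = 0.527). That of CCL25 was 0.12 (standard error 0.17, edgeR adjusted p = 0.8595). edgeR called 0 of 14793 genes (0%), with 1171 (7.92%, of which 3.32% of all tested were higher in HF) at an unadjusted p under 0.05, and DESeq2 called 27 of 16625 (0.162%, with 0.0782% higher in HF). In the order of levels, HF, LF and CTRL for both genes, neither the HF and LF neighbours nor the LF and CTRL neighbours differed at an adjusted p under 0.05.

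**Figure D2:**
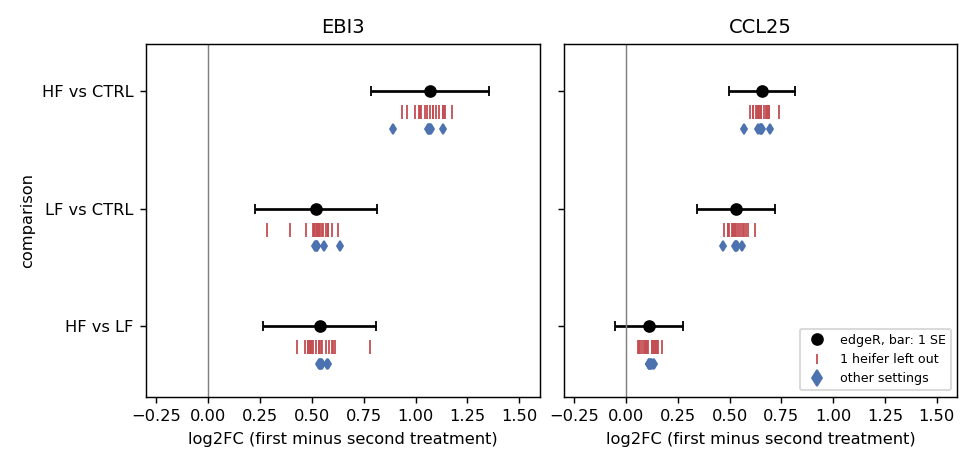
The log2FC of EBI3 and CCL25 (x axis, first minus second treatment) in the 3 comparisons (y axis). Black points are the edgeR estimates with a bar of 1 standard error, red ticks the estimates with 1 heifer left out and blue diamonds those under other settings; the lowest tick for EBI3 in LF vs CTRL, at 0.28, is the fit without LF8.

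The differences were also read within each study replicate. EBI3 in HF minus CTRL heifers was 1.11 on the log2 CPM scale in study replicate 1 and 0.91 in study replicate 2, and CCL25 was 0.57 and 0.71. LF minus CTRL was 0.62 and 0.34 for EBI3, and 0.49 and 0.50 for CCL25. HF minus LF was 0.49 and 0.58 for EBI3, and 0.07 and 0.21 for CCL25. HF minus CTRL is the contrast that chose the genes and the others share its heifers, so nothing is read from the signs. A change of the treatment difference between study replicates, fitted as an interaction in edgeR, was estimated from the counts and need not equal the gap between these means of log2 CPM, which for EBI3 in LF minus CTRL was wider. The fitted change was at most 0.18 on the log2 scale in size, with standard errors of 0.33 to 0.59, and did not pass the test for either gene in any pair (adjusted p at least 0.9998). For EBI3 in HF minus LF it was -0.09, opposite in sign to the rise from 0.49 to 0.58 in the means of log2 CPM. Over the 3 treatments, levels in study replicate 2 minus those in study replicate 1 averaged 0.23 for EBI3 (2-sided permutation test within treatments, p = 0.303) and 0.09 for CCL25 (p = 0.423).

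Because every bull served 2 heifers, the levels could be compared by bull. For EBI3, the closest heifers were those of LF bull 4 (2.15 and 2.19 CPM) and LF bull 1 (1.44 and 1.52 CPM), and the farthest were those of LF bull 3, with 1.76 CPM in LF3 and 5.30 CPM in LF8, a ratio of 3.01. Both heifers of HF bull 9 were high, at 4.65 and 5.44 CPM, and both heifers of HF bull 8 were low, at 1.93 and 1.71 CPM. For CCL25 the heifers of HF bull 10 were closest (5.04 and 5.16 CPM), and those of HF bull 9 farthest (3.37 and 5.95 CPM). Whether heifers given semen of the same bull were more alike than heifers of the same treatment paired otherwise was tested, and neither gene passed. With the means of treatment and study replicate taken off, the mean squared difference in log2 CPM within bulls was 0.468 for EBI3, against 0.557 over all such pairings (1-sided exact permutation test, p = 0.321), and 0.195 against 0.175 for CCL25 (p = 0.599). LF bull 3 weighed heavily in the EBI3 value, which was 0.237 against 0.393 without it (1-sided exact permutation test, p = 0.221). HF bulls 8 and 9 pulled the other way. Without bull 8 it was 0.502 against 0.470 (same test, p = 0.590), and without bull 9 it was 0.520 against 0.478 (p = 0.606). With any other bull left out it stayed below the mean over pairings. These values were computed after the data had been seen.

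**Figure D3:**
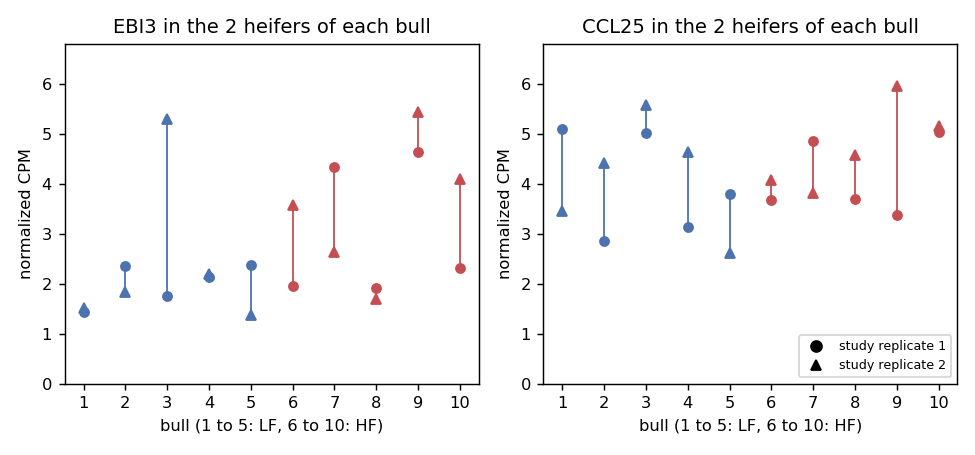
Normalized CPM (linear y axis) of EBI3 and CCL25 in the 2 heifers of each bull (x axis, LF bulls 1 to 5 in blue and HF bulls 6 to 10 in red), with a line joining the heifers, a circle for study replicate 1 and a triangle for study replicate 2. The EBI3 line of LF bull 3, from 1.76 to 5.30 CPM, is the longest, and both heifers of HF bull 9 are high.

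Breed crosses were not balanced over treatments, with 1 Charolais cross among the CTRL heifers against 4 in HF and 5 in LF. Within Limousin crosses EBI3 averaged 3.84 ± 1.62 CPM (SD, n = 4) in HF, 1.97 ± 0.527 CPM (SD, n = 3) in LF and 1.91 ± 0.357 CPM (SD, n = 4) in CTRL heifers. CCL25 in the same crosses averaged 4.49 ± 1.09, 3.37 ± 1.10 and 2.86 ± 0.734 CPM. Within Charolais crosses EBI3 averaged 2.66 ± 1.02 CPM in the HF treatment (SD, n = 4) against 1.79 ± 0.371 CPM for LF heifers (SD, n = 5), while CCL25 was lower in HF (4.09 ± 0.719 CPM) than in LF heifers (4.35 ± 0.725 CPM), by less than the spread between heifers. In the remaining crosses EBI3 averaged 3.33 CPM in HF (n = 2) and 3.73 CPM in LF heifers (n = 2, LF8 among them). With breed as a covariate, grouped as Limousin, Charolais and all remaining crosses, the log2FC in HF relative to CTRL heifers was 1.13 for EBI3 and 0.70 for CCL25. The remaining crosses were Belgian blue in HF and Aberdeen angus, Simmental and Saler in CTRL heifers, so this covariate does not separate these breeds.

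EBI3 and CCL25 were compared with each other across heifers, after the mean of each treatment had been taken off. Over 28 heifers Pearson's r was 0.293 (2-sided permutation within treatments, p = 0.140) and Spearman's rho was 0.227 (p = 0.243), so no relation was shown between them. Without CTRL1 and LF8, the heifers farthest from the EBI3 median, r was 0.196 (p = 0.322), and without LF8 alone it was 0.156 (p = 0.420). Within treatments r was 0.366 in HF (n = 10, permutation p = 0.291), 0.379 in LF (n = 10, permutation p = 0.300, and -0.05 without LF8) and 0.0896 in CTRL heifers (n = 8, permutation p = 0.825). Among 15162 genes ranked by likeness to EBI3, CCL25 stood at place 1039. Ranked by likeness to CCL25, EBI3 stood at place 3497 of as many.

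The genes most like each ligand were then listed. Likeness was Pearson's r of the same deviations over 28 heifers, given as a description, and only the 1512 ranked genes with a known name could be listed. These values share library and depth, and named genes lean towards small p-values for LF against CTRL. For EBI3 the closest named gene was COL9A3, a chain of the cartilage-type collagen IX, with r = 0.744 (rho = 0.730), the second highest of all genes. LF8 stood off this line, 1.32 above its treatment mean in log2 CPM of EBI3 and 0.16 above it in COL9A3, and without it r was 0.830. Then came GDF10, a ligand of the TGF-beta family (r = 0.644), CXXC5, a zinc finger protein (0.642), PLIN3, a lipid droplet coat protein (0.622), and FOXL2, a transcription factor of ovary and uterus (0.611). Without LF8 these were 0.544 for GDF10, 0.547 for CXXC5, 0.622 for PLIN3 and 0.541 for FOXL2.

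For CCL25 the closest of all genes was FABP7, a fatty acid binding protein, with r = 0.794 (rho = 0.828), followed by TYMS, the thymidylate synthase of DNA synthesis (r = 0.780), SLC27A3, an acyl-CoA synthetase of the fatty acid transporter family (0.750), the growth factor IGF2 (0.674) and CXXC5 (0.643). Without LF8 these were 0.780 for FABP7, 0.841 for TYMS, 0.726 for SLC27A3, 0.620 for IGF2 and 0.584 for CXXC5. The median r over all genes was 0.01 for EBI3 and -2.34e-04 for CCL25, and 1% of genes exceeded 0.478 for EBI3 and 0.573 for CCL25. CXXC5 appeared in both lists. By treatment, COL9A3 did not follow the order of EBI3, with mean levels of 41.3 CPM in HF, 12.3 in LF and 17.2 in CTRL heifers. FABP7 did follow the order of CCL25, at 56.6, 45.0 and 26.9 CPM.

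**Figure D4:**
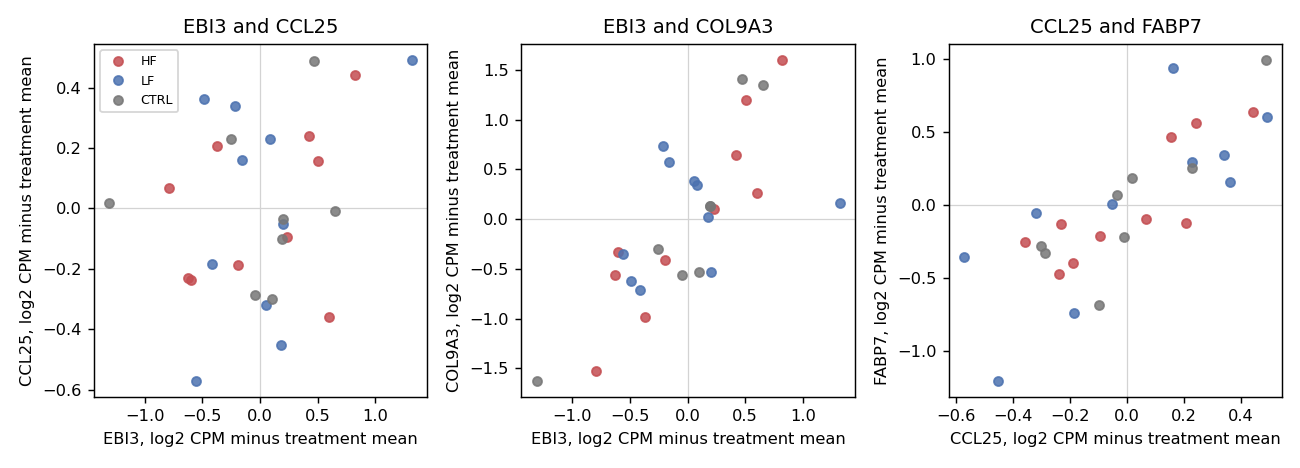
Log2 CPM of each heifer minus the mean of its treatment (both axes), for EBI3 and CCL25, EBI3 and COL9A3, and CCL25 and FABP7. Points are heifers coloured by treatment; the first panel has r = 0.293, whereas the others have r = 0.744 and 0.794, and the LF heifer at the far right of the first 2 panels is LF8.

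The partners and receptors of both ligands could not be placed among the IDs. The lists held 4 other IL-12 family subunits (IL27 and IL12A, the partners of EBI3 in IL-27 and IL-35, with IL12B and IL23A). They also held 5 receptor chains of the IL-12 family (IL27RA, IL6ST, IL12RB1, IL12RB2 and IL23R) and the 2 receptors of CCL25 (CCR9 and ACKR4). None of these had a name with an ID in the sources used here, and they were not analysed here. Of 13 genes that act in the induction of EBI3, 1 was named. NFKB2, a subunit of NF-kB, was at 77.9 ± 11.9 CPM (SD, n = 10) in HF, 76.0 ± 18.9 CPM (SD, n = 10) in LF and 93.3 ± 25.8 CPM (SD, n = 8) in CTRL heifers. NFKB2 did not pass the test in any pair (edgeR adjusted p = 0.382 in HF relative to CTRL, log2FC -0.26).

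Of 32 other chemokine ligands 3 were named, and 0 of the 3 passed in any pair by edgeR, which called 0% of all genes, or by DESeq2, which called 2.12% in HF relative to CTRL, 0.0104% in LF relative to CTRL and 0.162% in HF relative to LF, so the count says nothing particular about chemokines. CCL2, which the study lists with EBI3 and CCL25 among its receptor ligand genes of HF against CTRL, was not among the 3 and was not analysed here. CCL28, a chemokine of mucosal epithelia that attracts cells with CCR10 and the only named member of 10 genes of mucosal lymphocyte homing, had a mean of 1.18 CPM in HF, 2.01 in LF and 1.32 in CTRL heifers. Its log2FC was -0.16 in HF relative to CTRL, 0.60 in LF relative to CTRL and -0.77 in HF relative to LF (edgeR adjusted p = 0.813, 0.874 and 0.510). CX3CL1, the membrane-bound chemokine for CX3CR1, had a log2FC of 0.28 in HF and 0.36 in LF relative to CTRL (edgeR adjusted p = 0.597 and 0.909). CCL11, which attracts eosinophils, ranged from 0 to 8.41 CPM in HF, from 0 to 2.93 CPM in LF and from 0.0856 to 9.61 CPM in CTRL heifers, with a log2FC of -0.41 in HF relative to CTRL, -1.55 in LF relative to CTRL and 1.12 in HF relative to LF (edgeR adjusted p = 0.864, 0.874 and 0.801). The median log2FC of these 3 was -0.16 in HF relative to CTRL heifers (-0.02 over all genes tested), 0.36 in LF relative to CTRL heifers (0.01) and -0.08 in HF relative to LF heifers (-0.03). Named genes lean towards small p-values for LF against CTRL, so these medians are not like for like with those over all genes.

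Among cell type markers, 3 of 11 T cell genes were named (CD247, CD4 and LCK), and their summed level ran from 20.9 to 36.7 CPM in HF, from 23.6 to 47.1 CPM in LF and from 15.7 to 28.6 CPM in CTRL heifers. Their median log2FC was 0.30 in HF and 0.37 in LF relative to CTRL, with 3 of 3 above 0 in both and none past the test. Over all genes tested, 6906 of 14885 lay above 0 in HF and 7686 of 14849 in LF relative to CTRL, with medians of -0.02 and 0.01. As edgeR called 0% of all genes in both comparisons, the marker counts here single out no cell type. Named genes lean towards small p-values for LF against CTRL. The medians and signs of named markers are therefore not like for like with those over all genes. The 3 named of 11 macrophage and dendritic cell genes (C1QA, C1QB and C1QC) ran from 105.4 to 258.3, 101.8 to 228.2 and 92.2 to 195.7 CPM, with a median log2FC of 0.25 in HF and 0.36 in LF relative to CTRL, 3 of 3 above 0 in both and none past the test. The 3 named of 9 smooth muscle genes (ACTA2, MYLK and SMTN) had medians of 1018 CPM in HF, 1805 in LF and 4694 in CTRL heifers, with ranges that overlapped, and a median log2FC of -1.10 in HF and -1.12 in LF relative to CTRL. KRT8, the only named of 12 epithelial genes, had medians of 109 CPM in HF, 162 in LF and 106 in CTRL heifers, and VIM, the only named of 8 stromal genes, 2617, 2287 and 1944 CPM. Of the 14 named marker genes, VIM alone was called by DESeq2 in HF relative to CTRL heifers, where it called 2.12% of all genes (adjusted p = 0.0316, log2FC 0.40, edgeR adjusted p = 0.158). The 2 named of 8 ciliated cell genes (RSPH1 and TEKT1) had medians of 21.1, 28.5 and 18.3 CPM. MZB1, the only named of 8 B and plasma cell genes, had medians of 1.22, 1.21 and 0.991 CPM. It ran from 0.641 to 20.1 CPM in HF, from 0.569 to 5.09 CPM in LF and from 0.501 to 1.56 CPM in CTRL heifers. Its log2FC was 1.61 in HF and 0.68 in LF relative to CTRL (edgeR adjusted p = 0.243 and 0.874, DESeq2 adjusted p = 0.615 and 0.873). The value in HF thus goes with a wide spread and a median near that of CTRL heifers. The summed levels were above 0 in every heifer. No gene of the neutrophil and endothelial lists had a name with an ID.

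The 7 lists with a named member were set against both ligands over 28 heifers, after the treatment means were removed, which makes 14 relations with p-values from permutation within treatments. None passed adjustment over the 14. The largest was CCL25 with the stromal marker VIM, with r = 0.506 (permutation p = 0.0151, adjusted p = 0.106), rho = 0.517 (p = 0.0118, adjusted p = 0.165) and r = 0.568 without the 2 heifers farthest from the median of VIM. CCL25 with MZB1 had r = 0.444 (permutation p = 0.0138, adjusted p = 0.106), rho = 0.347 (p = 0.0738, adjusted p = 0.390) and r = 0.241 without HF9 and LF1, on which the relation rested. EBI3 had r = 0.321 with the T cell genes (permutation p = 0.115, adjusted p = 0.472; rho = 0.250, p = 0.216, adjusted p = 0.607) and 0.0475 without CTRL1 and HF5. With the C1Q genes it had r = 0.302 (p = 0.135, adjusted p = 0.472; rho = 0.344, p = 0.0836, adjusted p = 0.390), and 0.177 without LF1 and HF4. With the smooth muscle genes r was -0.24 for EBI3 (permutation p = 0.240, adjusted p = 0.659; rho -0.20, p = 0.331, adjusted p = 0.607) and -0.17 for CCL25 (p = 0.384, adjusted p = 0.659; rho -0.18, p = 0.360, adjusted p = 0.607). The part of cell makeup in the treatment differences of EBI3 and CCL25 was not tested.

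EBI3 and CCL25 lie on the same chromosome in the RefSeq order of the ARS-UCD2.0 assembly, whose coordinates are not those of the files. EBI3 stands between YJU2 and ANKRD24, and CCL25 between ELAVL1 and FBN3. Of the 3 genes on each side of either, only CERS4, a ceramide synthase and the third gene past CCL25, had a name among the IDs. Names came from the study's own tables, so a named neighbour was favoured to differ between treatments. CERS4 was at 27.2 ± 6.43 CPM (SD, n = 10) in HF, 23.0 ± 6.18 CPM (SD, n = 10) in LF and 15.2 ± 5.04 CPM (SD, n = 8) in CTRL heifers. Its log2FC was 0.84 in HF and 0.60 in LF relative to CTRL and 0.23 in HF relative to LF (edgeR adjusted p = 0.117, 0.874 and 0.756; DESeq2 adjusted p = 0.00506, 0.625 and 0.740). DESeq2 called 2.12% of all genes in HF relative to CTRL heifers. The other neighbours were not analysed, so nothing is read about the region. Across heifers within treatments CERS4 and CCL25 had r = 0.250 (permutation p = 0.207; rho = 0.221, p = 0.266).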

How the data were processed

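RNA-seq was made from one uterine biopsy per heifer with a stranded mRNA kit. After trimming and alignment to ARS-UCD1.2, the authors deposited raw counts of uniquely mapped reads per Ensembl gene ID. STAR 2.6.1b and Subread 1.6.3 stand in the submitters' processing notes, whereas the study's methods name another STAR version and STAR's own counting, so the tool that made the counts is not settled. Whether counting used the strand is not stated there. The members and lists were chosen with earlier results of these data known.

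Treatments came from the sample labels, and bull, breed and study replicate from the study's animal sheet. Names of 1522 IDs came from the study's tables and the rows at hand of its LF against CTRL sheet, whose values (its own fold changes, p-values and normalized counts) were not used. Counts were fitted in R 4.3.3 with edgeR 4.0.16 (TMM, filterByExpr at a minimum count of 10, quasi-likelihood test) on the 2 treatments compared, with DESeq2 1.42.0 as the alternative. Adjusted p under 0.05 was the threshold, over all genes. CPM used TMM over 28 heifers, and log2 CPM a prior count of 2. Permutations used 100000 resamples unless exact, and intervals of a log2FC a t quantile on the residual degrees of freedom. Genes named in the text were both ligands, the lists of partners and receptors, the genes of other lists with the smallest p, the 5 named genes most like each ligand and the 3 neighbours on each side. The scripts were tested on simulated data. No heifers were dropped from the main fits. Heifers are separate animals, but the 2 of a bull share its semen. The straws of a bull came from 2 ejaculates, and whether its 2 heifers shared an ejaculate is not settled. No replicate pair was counted as one library (chi-square per degree of freedom at least 18.4).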

Additional observations from a re-analysis of the deposited data

Results flagged for a closer look

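One value stood apart among the 6 groups of heifers (2 genes in 3 treatments) that were tested for a single far sample. The test was run on linear CPM, and chance passes it in about 1 of 20 groups. EBI3 in LF8 was 5.30 CPM, and its gap to the next LF heifer took up 0.741 of the range of the group, above the limit of 0.466 for 10 heifers. It rested on 96 reads, with a 95% exact Poisson interval of 4.30 to 6.48 CPM. LF8, one of 2 heifers of LF bull 3 and a Simmental cross, also had the highest CCL25 of the LF heifers, at 5.58 CPM, which did not stand apart (0.165 of the range). EBI3 in CTRL1 did not stand apart in linear CPM (0.371 of the range, limit 0.526 for 8 heifers). On log2 CPM, which was not tested, CTRL1 lay at -0.67, the next CTRL heifer, CTRL8, at 0.38 and the highest, CTRL6, at 1.29. Without CTRL1 the log2FC of EBI3 was 0.93 in HF and 0.39 in LF relative to CTRL.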

How the results depend on the processing

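In LF relative to CTRL and HF relative to LF heifers, no alternative took EBI3 or CCL25 past the threshold. The sign in HF relative to CTRL heifers was fixed by the choice of the genes. With 1 heifer left out, the log2FC of EBI3 ranged from 0.93 to 1.18 in HF relative to CTRL, from 0.28 to 0.63 in LF relative to CTRL and from 0.43 to 0.78 in HF relative to LF, and that of CCL25 from 0.60 to 0.74, from 0.47 to 0.62 and from 0.06 (without HF9) to 0.18. DESeq2 in place of edgeR raised the genes called from 0 to 328, 2 and 27 in these comparisons. Leaving out 1 heifer gave 0 to 91 genes in HF relative to CTRL (91 without CTRL2, 3 without CTRL6) and 0 in the others. Heifers that share a number had correlated deviations (r above 0.1) in 5 of 8, 4 of 8 and 5 of 10 pairs, so the numbers do not pair them. With the replicate block, log2FC was 0.89, 0.56 and 0.57 for EBI3 and 0.57, 0.56 and 0.13 for CCL25, and 0 genes were called in each comparison. Against CTRL heifers this fit left out HF9, HF10, LF9 and LF10, whose numbers no CTRL heifer shares. Its values against CTRL thus differ from the main fit in heifers as well as in blocking. The correlation of EBI3 and CCL25 ranged from 0.156 to 0.368 with 1 heifer left out, and the study replicate difference from 0.109 (without CTRL1) to 0.307 for EBI3 and from 0.0534 (without LF8) to 0.149 for CCL25. Scaling by total counts only gave 0.0539 for the latter. No other alternative in normalization, filter or prior count moved a result across its threshold. With 1 bull left out, an alternative added after seeing the data, the mean squared difference within bulls ranged from 0.237 (without bull 3) to 0.520 for EBI3 and from 0.164 to 0.216 for CCL25. Depth was 9 to 108 reads per heifer for EBI3 and 37 to 121 for CCL25.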
